A study of Mus musculus with 4 samples.

Results

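The constitutive proteasome subunits were taken as every row of the gene table named Psma, Psmb, Psmc, Psmd or Psme followed by a number, without Psmb8, Psmb9 and Psmb10, the subunits of the immunoproteasome. The rule found 40 of 23420 genes: 8 in the alpha ring of the core (Psma), 8 in the beta ring (Psmb), 6 in the base (Psmc), 14 in the lid and among the other non-ATPase subunits (Psmd) and 4 activators (Psme). They were measured by RNA sequencing in MK2 and MK1, 2 mouse keratinocyte lines without a stated treatment, each with 2 biological replicate cultures, from a series on p63 and the epidermis of mouse and human. Every fold change sets MK2 over MK1. The labels used here give no strain, sex, passage or origin for either line. The p-values set the difference between the 2 lines against the spread between replicate cultures, and do not say how mouse keratinocytes vary.

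The proteasome is the protease that degrades most ubiquitin-tagged proteins in the cytosol and nucleus. Its core is a barrel of alpha rings, which form the gate, around beta rings, which hold the active sites. The base, a ring of ATPases, unfolds substrates and threads them through the gate, and the lid removes their ubiquitin. Activators can take the place of base and lid on the barrel. The subunits are housekeeping genes, and when proteasome activity is short the transcription factor NRF1, encoded by Nfe2l1, raises many of them together through antioxidant response elements in their promoters.

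Libraries held 25237391 to 30261111 counts. The 9 keratinocyte markers listed summed to 22073 and 19003 CPM in the MK2 cultures and to 23039.5 and 22781 CPM in the MK1 cultures. CPM scales a gene's reads to 1e6 counts of the library after TMM. Krt5 and Krt14 had the most, 8862 and 9179 CPM in MK2 replicate 1. These 2 genes and Trp63 were among 6 markers that did not pass. Itga6 was higher in MK2 (log2 change 0.83), and Col17a1 and Dsg3 were lower (-1.06 and -0.44). Krt15 had 702 and 7 counts in the MK2 cultures, against 145 and 120 in MK1. Transcripts of B lymphocytes were detected in MK1: the 9 B-cell markers summed to 0.556 and 0.670 CPM in MK2, with Cd79b and Ms4a1 at 0 counts, and to 16.0 and 17.1 CPM in MK1. The 15 other leukocyte markers summed to 2.90 and 3.60 CPM in MK2 and to 45.5 and 41.3 CPM in MK1. Cd74 and Cd68 had the most, at means of 17.8 and 16.7 CPM in MK1. Cd3e, Cd3d, Cd4, Cd8a, Emr1, Itgam, Itgax and Lyz2 had 6 counts or fewer in every library. Cd207, the marker of Langerhans cells, had 0 counts in all 4 libraries. All 8 B-cell and 6 other leukocyte markers that could be tested were lower in MK2. The 8 fibroblast markers summed to 1.03 and 1.41 CPM in MK2 and to 3.88 and 3.35 CPM in MK1. In such bulk RNA, fewer cells of a type and less RNA per cell cannot be told apart.

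A larger share of proteasome genes was higher in MK2 than of all genes tested, and the changes were small. Summed over all 40 genes the level was 7049 and 7260.3 CPM in the MK2 cultures, against 5308 and 5714 CPM in the MK1 cultures, 1.30 times as much. Of 39 members tested, 20 rose, 2 fell and 17 did not pass (edgeR's quasi-likelihood test, Benjamini-Hochberg adjusted p under 0.05 over all 12479 genes tested). That is 51.3% higher and 5.13% lower, beside 25.9% higher and 28.6% lower among all genes tested (54.6% in either direction). Among the 8912 genes with a mean of at least 10 CPM, 29.6% rose and 24.2% fell. The median log2 change was 0.30 over the members, a fold of 1.23, and -0.01 over all genes tested. None of the 39 passed the test for a change beyond 2-fold (glmTreat), which 13.3% of all genes passed. In 29 members both MK2 cultures lay above both MK1 cultures, in 4 below, and in 6 the lines overlapped, beside 39.5% above and 40.9% below among all genes.

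Fewer members, and fewer of all genes, were called when an MK1 culture was left out. Those fits took the spread between replicates from the MK2 pair alone, which differed more (median chi-square per gene 4.28, against 2.88 in MK1). The members' median log2 change moved little, at 0.28 without MK1 replicate 1 and 0.34 without MK1 replicate 2, against 0.30 with all libraries. Without MK1 replicate 1, 9 members rose and 3 fell, 23.1% and 7.69%, beside 12.1% and 17.3% of all genes, and without MK1 replicate 2, 13 rose and 1 fell, 33.3% and 2.56%, beside 14.7% and 19.5%. MK1 replicate 2 lay above MK1 replicate 1 in most members, with a median log2 difference of 0.11, whereas the MK2 cultures differed by a median of 0.04. Of the 22 calls, 10 held in every alternative fit: Psmb7, Psmc3, Psmd2, Psmd5, Psmd7, Psmd12, Psmd13, Psmd14 and Psme4, all higher, and Psme1, lower. Upper-quartile scaling ended the calls of Psma3, Psmb5, Psmc5 and Psme3, and scaling by library size alone that of Psme3.

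**Figure D1:**
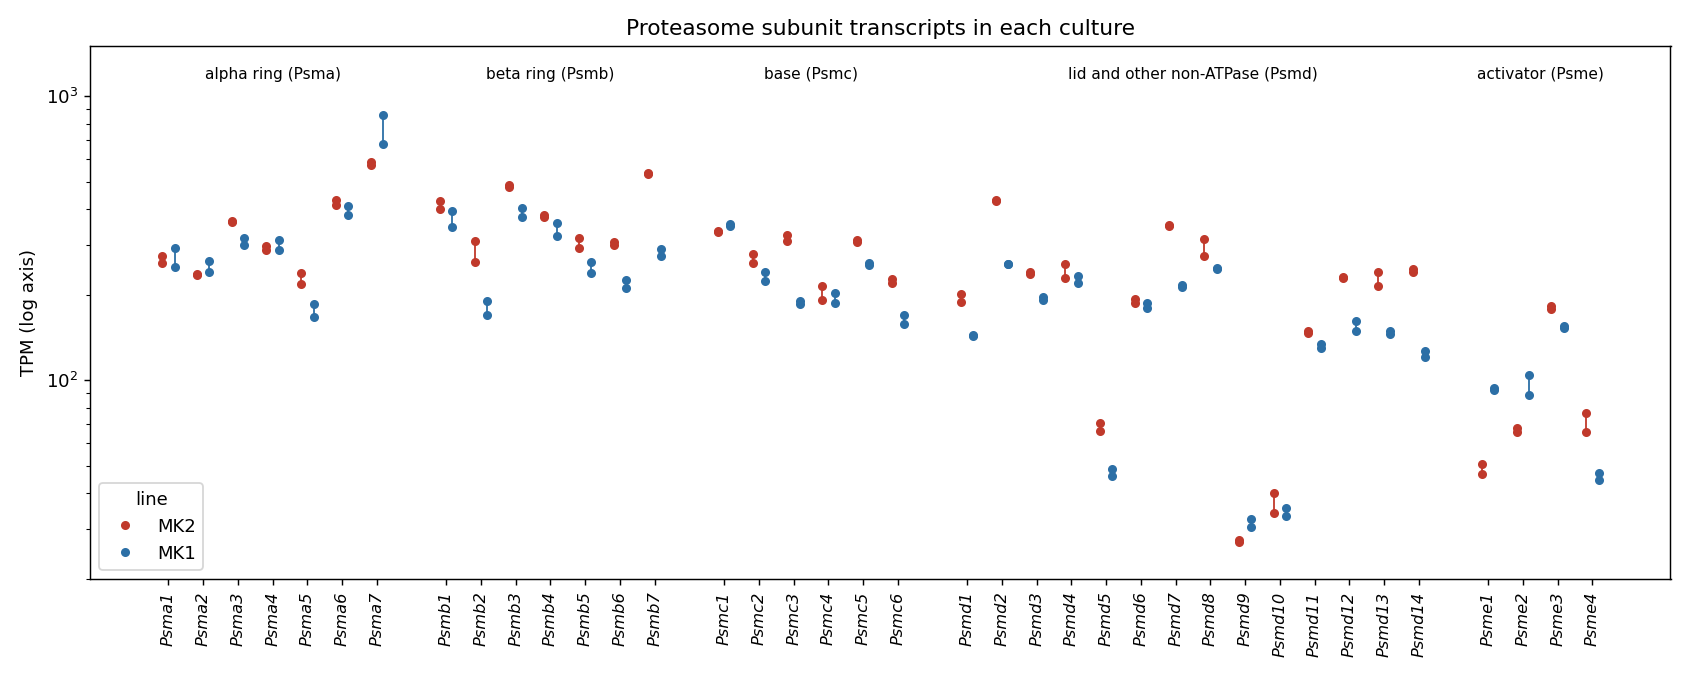
TPM (transcripts per 1e6, corrected for gene length; log axis) of 38 proteasome genes in each culture, MK2 in red and MK1 in blue, with a line joining the cultures of a line. The MK2 points are mostly above the MK1 points outside the alpha ring, and Psma8 and Psmb11, near or at 0, are left out.

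Per length of transcript, the members spanned a wide range. Leaving out Psma8 and Psmb11, the highest of the other 38 was Psma7, at 586 and 571 TPM in MK2 and 677 and 855 TPM in MK1. The lowest was Psmd9, at 27.0 and 27.3 TPM in MK2 and 30.4 and 32.5 TPM in MK1. The median member stood at 249 and 266 TPM in MK2, against 204 and 207 TPM in MK1. The members with the fewest TPM outside the activators, Psmd5, Psmd9 and Psmd10, encode chaperones that help assemble the base and leave it before the proteasome is complete.

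Promoter sequence was looked up because NRF1 acts on these genes together. RefSeq starts on GRCm38.p6, the same genome as the mm10 of the deposited table, were matched for 33 of the 40 members, all but Psma8, Psmb1, Psmb2, Psmb7, Psmc3, Psmd3 and Psmd7. The antioxidant response element core TGACNNNGC, searched on both strands in the 250 bases before any listed start, was found for 5 of 33 members (15.2%), beside 11.5% of 27025 genes. It was found for 4 of 15 members that rose, 0 of 2 that fell and 1 of the 16 others. The CCAAT box, bound by NF-Y, was found for 13 of 33 (39.4%), beside 37.5% of all genes, and for 4 of 15 that rose, 0 of 2 that fell and 9 of the 16 others. A form of the interferon-stimulated response element (the repeat GAAA, any 2 bases, GAAA) was found for 3 of 33 (9.09%), beside 3.46%, and for 1 of 15 that rose, 0 of 2 that fell and 2 of the 16 others. In the members, 0 matches of these motifs overlapped each other. The 5 windows with the antioxidant core follow, each 250 bases, 5′ to 3′ on the gene's strand and ending at the base before the start, with the match in capitals. Its first base lay 47, 9, 227, 247 and 31 bases before the start in the order given.
Psmb5 (catalytic, higher in MK2, chr14:54617996-54618245, - strand): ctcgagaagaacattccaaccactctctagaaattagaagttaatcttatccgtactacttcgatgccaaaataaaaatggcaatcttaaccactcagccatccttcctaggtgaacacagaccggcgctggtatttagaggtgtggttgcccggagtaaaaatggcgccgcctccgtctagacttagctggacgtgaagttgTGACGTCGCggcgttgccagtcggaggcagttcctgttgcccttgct
Psmb6 (catalytic, higher in MK2, chr11:70525107-70525356, + strand): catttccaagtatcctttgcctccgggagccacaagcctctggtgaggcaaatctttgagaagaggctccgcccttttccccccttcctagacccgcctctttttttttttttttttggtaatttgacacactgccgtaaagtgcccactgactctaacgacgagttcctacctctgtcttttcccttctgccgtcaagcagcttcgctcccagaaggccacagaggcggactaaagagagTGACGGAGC
Psmc6 (base ATPase, higher in MK2, chr14:45329574-45329823, + strand): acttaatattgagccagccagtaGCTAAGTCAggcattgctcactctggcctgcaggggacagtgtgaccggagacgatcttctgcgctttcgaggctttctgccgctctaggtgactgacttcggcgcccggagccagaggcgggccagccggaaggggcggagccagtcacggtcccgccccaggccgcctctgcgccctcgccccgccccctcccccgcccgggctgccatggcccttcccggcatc
Psmd12 (lid, higher in MK2, chr11:107479278-107479527, + strand): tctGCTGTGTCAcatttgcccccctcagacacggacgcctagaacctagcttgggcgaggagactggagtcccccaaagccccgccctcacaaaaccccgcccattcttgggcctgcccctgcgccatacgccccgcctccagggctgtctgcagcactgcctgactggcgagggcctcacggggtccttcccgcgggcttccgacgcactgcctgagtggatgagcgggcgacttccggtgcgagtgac
Psmd9 (base chaperone, not called, chr5:123227940-123228189, + strand): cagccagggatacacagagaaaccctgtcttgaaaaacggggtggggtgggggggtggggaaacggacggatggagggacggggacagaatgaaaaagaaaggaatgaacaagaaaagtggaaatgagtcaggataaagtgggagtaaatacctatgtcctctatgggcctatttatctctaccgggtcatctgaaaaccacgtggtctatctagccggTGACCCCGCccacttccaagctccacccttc

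In the alpha ring, few genes differed. Of 7 tested members 2 rose and none fell, 28.6%, close to the 25.9% of all genes, and their median log2 change was 0.04. Their summed level was 1289 and 1309.5 CPM in MK2, against 1163 and 1348 CPM in MK1, so that the lines overlapped. Psma5 (chromosome 3, 108256926 to 108279952, mm10) had 144 and 134 CPM in the MK2 cultures, against 95.9 and 109 CPM in the MK1 cultures. The lines did not overlap, and the gene rose by 0.44 ± 0.11 on the log2 scale (SE; edgeR's quasi-likelihood test, adjusted p = 0.0155; 0.137 without MK1 replicate 1). Psma3 rose by 0.30 (adjusted p = 0.0415), a call that ended without MK1 replicate 1, MK1 replicate 2 or MK2 replicate 2 (adjusted p = 0.252, 0.119 and 0.0684). Psma1, Psma2, Psma4 and Psma6 did not pass, with log2 changes between -0.03 and 0.16.

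Psma7, the most abundant alpha subunit (chromosome 2, 180036376 to 180042402), went the other way. It had 256 and 254 CPM in MK2, against 282 and 364 CPM in MK1. Both MK2 cultures lay below both MK1 cultures, which themselves differed, and the log2 change of -0.34 ± 0.14 (SE) did not pass (adjusted p = 0.0773). Without MK1 replicate 1 it did pass (log2 change -0.52, adjusted p = 0.0491), and without MK1 replicate 2 the log2 change was -0.15 (adjusted p = 0.457). Psma8, an alpha subunit of the testis, had 1 count in MK1 replicate 2 and 0 counts in the other libraries, where 3 counts would be 0.0991 to 0.119 CPM, and was not tested.

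In the beta ring, all 3 catalytic subunits rose. Of 8 tested members 5 rose in all (62.5%, beside 25.9% of all genes tested) and none fell (beside 28.6%). The median log2 change of the 8 members was 0.36. Their summed level was 1217 and 1261 CPM in MK2, against 838 and 938 CPM in MK1, 1.395 times as much. The largest change was that of Psmb7 (chromosome 2, 38588046 to 38643906), the trypsin-like active site, at 254 and 261 CPM in MK2 against 126 and 135 CPM in MK1. Psmb7 thus differed far more between lines than between cultures, with a log2 change of 0.98 ± 0.10 (SE; adjusted p = 0.000442). The caspase-like Psmb6 (chromosome 11, 70525357 to 70527858) had 158 and 157 CPM in MK2, against 103 and 113 CPM in MK1, and rose by 0.54 ± 0.10 (adjusted p = 0.00474; 0.0639 without MK1 replicate 1). The chymotrypsin-like Psmb5 (chromosome 14, 54614120 to 54617995) had 136 and 128 CPM in MK2, against 97.9 and 110 CPM in MK1, and rose by 0.35 ± 0.11 (adjusted p = 0.0334). The call of Psmb5 was the least firm of the catalytic subunits: it ended without MK1 replicate 1, MK1 replicate 2 or MK2 replicate 1 (adjusted p = 0.226, 0.0794 and 0.0730). In the table, 109 bases of Psmb5 exons also belong to Mir686 on the same strand, and reads there could not be assigned to 1 gene.

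The catalytic subunits differed in the size of their change, a difference that was not tested. Per length, Psmb7 stood at 532 TPM in MK2 and 282 TPM in MK1 on average, Psmb6 at 303 and 218 TPM, and Psmb5 at 304 and 249 TPM. Among the structural subunits Psmb2 rose by 0.73 (adjusted p = 0.00418; 0.0548 without MK1 replicate 1). Psmb3, the most abundant beta subunit per length over the 4 libraries, had 176 and 176 CPM in MK2 against 129 and 142 CPM in MK1, a rise of 0.38 (adjusted p = 0.0203) that did not pass without MK1 replicate 1 or MK1 replicate 2 (adjusted p = 0.167 and 0.0698). Psmb1 and Psmb4 had log2 changes of 0.23 and 0.22 and did not pass. Psmb11, the beta subunit of the thymus cortex, was near the detection limit, with 15 and 9 counts in MK2 and 19 and 9 counts in MK1, and its sign depended on the libraries included.

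**Figure D2:**
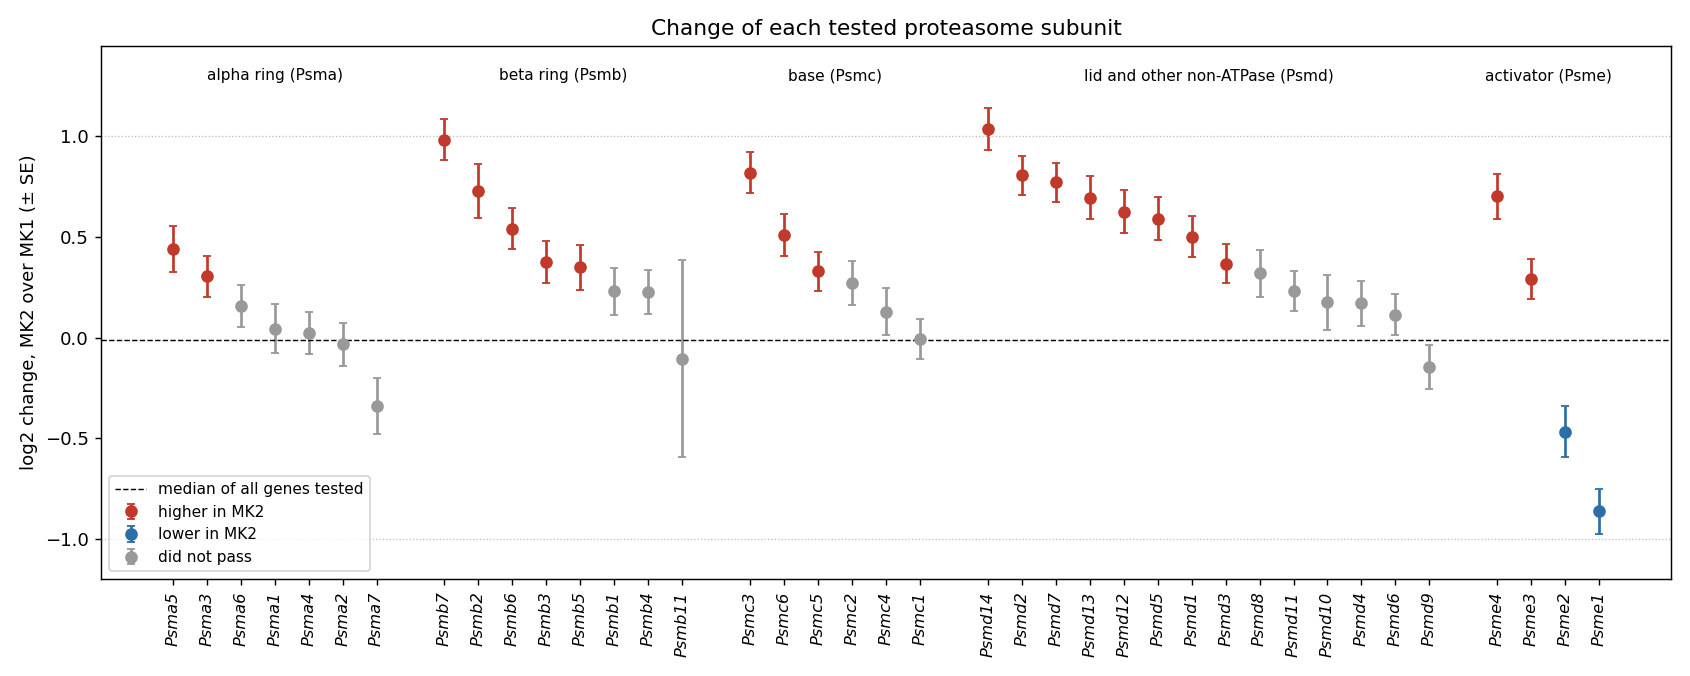
Log2 change (MK2 over MK1) of the 39 tested members with its SE, ordered within each part of the complex, in red where higher in MK2, blue where lower and grey where the test was not passed. The dashed line is the median of all genes tested (-0.01), the dotted lines mark a log2 change of 1 in either direction, and the 2 blue points are Psme1 and Psme2.

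In the base, both MK2 cultures lay above both MK1 cultures for 4 of the ATPases, and the lines overlapped for Psmc1 and Psmc4. Among all genes tested, 39.5% lay above in this way and 40.9% below. Of 6 tested ATPases, 3 rose (50%, beside 25.9% of all genes tested) and none fell (beside 28.6%). Their median log2 change was 0.30. The summed level was 1231 and 1298 CPM in MK2, against 978 and 1039 CPM in MK1. Psmc3 (chromosome 2, 91054016 to 91059438) had 250.2 and 268 CPM in MK2, against 143 and 150.5 CPM in MK1, and rose by 0.82 ± 0.10 (SE; adjusted p = 0.000914). Psmc6 (chromosome 14, 45329824 to 45349071), whose window holds the antioxidant core farther from the start, had 176 and 174 CPM in MK2, against 117 and 128 CPM in MK1. It rose by 0.51 ± 0.10 (adjusted p = 0.00628; 0.0769 without MK1 replicate 1), and Psmc5 rose by 0.33 (adjusted p = 0.0261; 0.155 without MK1 replicate 1 and 0.135 without MK1 replicate 2).

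Psmc1, the most abundant base subunit per length, overlapped between the lines. It had 246 and 253 CPM in MK2, against 247 and 255 CPM in MK1, a log2 change of -0.01 ± 0.10 (SE; adjusted p = 0.949). Psmc2 and Psmc4 had log2 changes of 0.27 and 0.13 and did not pass. Psmc2 passed without MK2 replicate 1 (adjusted p = 0.0406). The ATPases sit in 1 ring in equal numbers, and the difference in log2 change between its extremes, Psmc3 and Psmc1, was not tested.

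Among the lid and other non-ATPase genes 8 of 14 rose (57.1%, beside 25.9% of all genes tested) and none fell (beside 28.6%). Their median log2 change was 0.43. Their summed level was 2779.9 and 2879.5 CPM in MK2, against 1909.8 and 1964 CPM in MK1, 1.46 times as much. Psmd14 (chromosome 2, 61711694 to 61800376), the metalloprotease that cuts ubiquitin chains off substrates, had 183 and 191 CPM in MK2, against 87.5 and 94.7 CPM in MK1. Its log2 change of 1.04 ± 0.10 (SE; adjusted p = 0.000379) was the largest among the members and still did not exceed 2-fold in glmTreat (adjusted p = 0.741). Psmd7, which pairs with Psmd14 in the lid, rose by 0.77 (adjusted p = 0.000935). Psmd2 (chromosome 16, 20651652 to 20663414), the scaffold that docks ubiquitin shuttles and Usp14, had 653 and 656 CPM in MK2, against 370 and 379 CPM in MK1. It was the most abundant gene of this group per length, and rose by 0.81 ± 0.10 (SE; adjusted p = 0.000819).

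The lid scaffolds Psmd12 and Psmd13 rose by 0.63 and 0.70 (adjusted p = 0.00300 and 0.00189). Psmd1, the other large scaffold of the regulatory particle, rose by 0.50 (adjusted p = 0.00654; 0.0746 without MK1 replicate 1 and 0.0534 without MK1 replicate 2). The lid subunit Psmd3 rose by 0.37 (adjusted p = 0.0180; 0.120 without MK1 replicate 1 and 0.117 without MK1 replicate 2). The ubiquitin receptor Psmd4 and the lid subunits Psmd6, Psmd8 and Psmd11 had log2 changes of 0.17, 0.11, 0.32 and 0.23 and did not pass. Psmd8 was closest to the threshold (adjusted p = 0.0529) and passed without MK2 replicate 1 (adjusted p = 0.0120).

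The 3 chaperones of base assembly did not move alike. Psmd5 had 71.4 and 68.1 CPM in MK2, against 44.4 and 48.2 CPM in MK1, and rose by 0.59 ± 0.11 (SE; adjusted p = 0.00379). Psmd9 (chromosome 5, 123228190 to 123250125) had 34.6 and 35.7 CPM in MK2, against 37.2 and 40.7 CPM in MK1. Psmd9 was the single member of the group with a negative value, -0.15 ± 0.11 (adjusted p = 0.292). Psmd10, also called gankyrin, is X-linked and had a log2 change of 0.18 ± 0.14 (adjusted p = 0.312).

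The activators went both ways: 2 of the 4 tested rose (50%, beside 25.9% of all genes tested) and 2 fell (50%, beside 28.6%). Psme1 and Psme2 encode the chains of PA28 alpha and beta, the interferon-inducible activator linked to antigen processing, and both fell. Psme1 (chromosome 14, 55578494 to 55581527) had 22.7 and 25.01 CPM in MK2, against 43.4 and 43.6 CPM in MK1, a change of -0.86 ± 0.11 (SE; adjusted p = 0.00106). Psme2 (chromosome 14, 55587440 to 55591101) had 32.8 and 32.4 CPM in MK2, against 40.8 and 49.4 CPM in MK1, a change of -0.47 ± 0.13 (adjusted p = 0.0191). The lines did not overlap in either gene, and the call of Psme2 ended without MK1 replicate 2 (log2 change -0.33, adjusted p = 0.152). The genes lie close together on chromosome 14, on opposite strands, and were the 2 members of 39 that fell. Psme2 has a copy, Psme2b, in RefSeq, and how its reads were divided is uncertain.

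Psme3 (chromosome 11, 101316251 to 101323530), the nuclear activator PA28 gamma, and Psme4 (chromosome 11, 30771775 to 30880361), the nuclear activator PA200, rose. Psme4 had 245 and 214 CPM in MK2, against 143 and 139 CPM in MK1, and rose by 0.70 ± 0.11 (SE; adjusted p = 0.00232). Psme3 had 231 and 241 CPM in MK2, against 192 and 194 CPM in MK1. Its rise of 0.29 ± 0.10 (adjusted p = 0.0422) was a call that ended without MK1 replicate 1, MK1 replicate 2 or MK2 replicate 2 (adjusted p = 0.201, 0.181 and 0.0790). Psme3 had 3.79 and 3.60 times the TPM of Psme1 in MK2, against 1.65 and 1.66 times in MK1. Psme1 and Psme2 together had 0.388 and 0.407 of the median TPM of Psma1 to Psma7 in MK2, against 0.633 and 0.633 in MK1. Neither ratio overlapped between the lines, and 2 against 2 libraries cannot go below an exact permutation p of 0.333 (two-sided), which both reached.

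The windows before the starts of Psme1 and Psme2, the members that fell, are shown in the same way; they hold none of the 3 motifs, so no letter is in capitals. For Psme2 the upstream of 2 listed starts is shown, and the other window holds none either.
Psme1 (activator, lower in MK2, chr14:55578244-55578493, + strand): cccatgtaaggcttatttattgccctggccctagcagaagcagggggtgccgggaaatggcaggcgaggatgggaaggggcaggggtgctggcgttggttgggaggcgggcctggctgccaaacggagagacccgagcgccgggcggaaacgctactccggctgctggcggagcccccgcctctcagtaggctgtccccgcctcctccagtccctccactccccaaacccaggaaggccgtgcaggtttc
Psme2 (activator, lower in MK2, chr14:55591102-55591351, - strand): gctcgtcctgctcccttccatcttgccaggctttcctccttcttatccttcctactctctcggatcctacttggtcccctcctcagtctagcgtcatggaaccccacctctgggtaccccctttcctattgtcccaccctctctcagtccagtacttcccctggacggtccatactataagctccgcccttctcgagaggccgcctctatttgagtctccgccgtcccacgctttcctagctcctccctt

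Of the immunoproteasome subunits, which replace the catalytic ones in cells that process antigen, Psmb8 and Psmb9 were scarce in both lines and lower in MK2, and Psmb10 was more abundant and higher. Psmb8 had 3 and 3 counts in MK2, against 44 and 31 counts in MK1, and was 11.7-fold lower in MK2 (95% counting interval 5.12 to 32.9; adjusted p = 0.000762). Psmb9, close to it on chromosome 17, had 11 and 8 counts in MK2, against 48 and 41 counts in MK1, 4.38-fold lower (95% counting interval 2.65 to 7.61; adjusted p = 0.00255). Psmb10 differed from these 2 genes, at 15.7 and 15.1 CPM in MK2 against 8.29 and 9.83 CPM in MK1, and rose by 0.77 (adjusted p = 0.00675; 0.0662 without MK1 replicate 1). Relative to the constitutive subunit it replaces, Psmb8 had 0.000622 and 0.000589 of the TPM of Psmb5 in MK2, against 0.0105 and 0.00749 in MK1. Psmb10 had 0.0472 and 0.0441 of the TPM of Psmb7 in MK2, against 0.0503 and 0.0555 in MK1. B-cell markers moved with Psmb8, Psmb9, Psme1 and Psme2, at 0.556 and 0.670 CPM in MK2 against 16.0 and 17.1 CPM in MK1 over 9 genes, and their part in these differences was not tested.

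**Figure D3:**
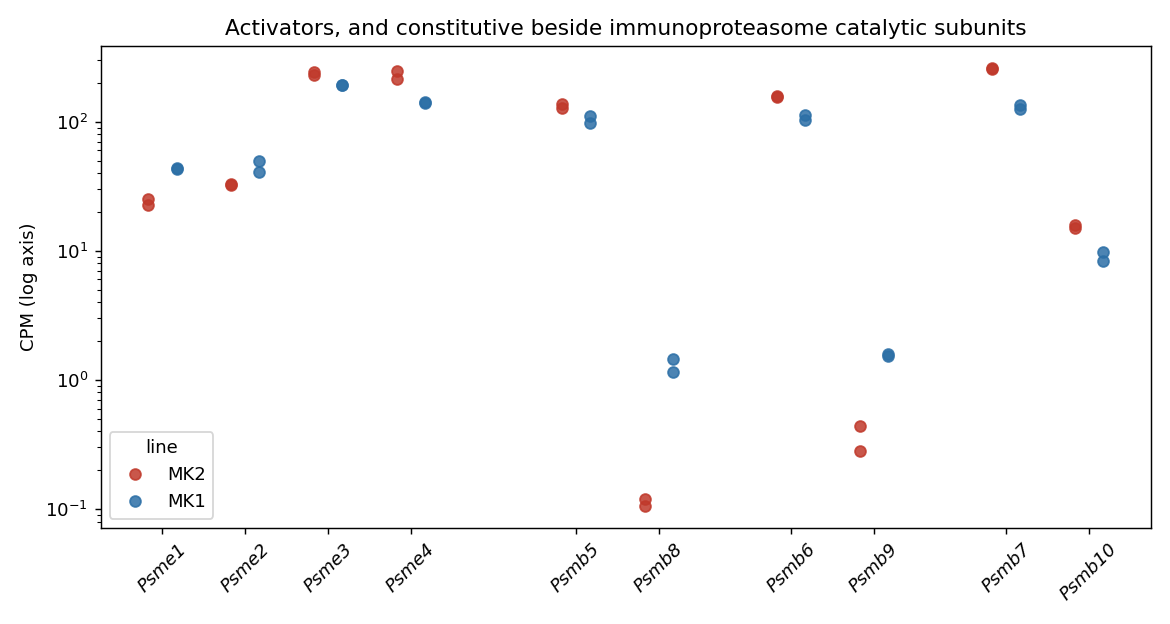
CPM (log axis) in each culture, MK2 in red to the left of MK1 in blue, for the 4 activators and for each constitutive catalytic subunit beside the immunoproteasome subunit that replaces it. Psme1, Psme2, Psmb8 and Psmb9 lie lower in MK2, the other 6 genes higher, and no gene overlaps between the lines.

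The change of a member went with the changes of the genes around it. Each member was set beside its neighbourhood, the median log2 change of the nearest 25 tested genes on each side. Across the 39 tested members Pearson's r was 0.67 and Spearman's rho 0.72, given as a description across genes of the same 4 libraries, with some members sharing neighbours. The 2 members with the lowest neighbourhoods, Psma7 (-0.84) and Psma4 (-0.51), had log2 changes of -0.34 and 0.02. The highest, Psmb2 (0.59) and Psmb7 (0.41), had 0.73 and 0.98. Of 20 members with a neighbourhood above 0, 16 rose, and of 19 at or below 0, 4 rose. The same split was not computed over all genes tested, so it is not shown to be particular to the members.

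Most members stood above the median of their neighbours. In 35 of 39 the log2 change exceeded it, and the 4 below it were Psmd9, Psmd11, Psme1 and Psme2. All 20 that rose were above it, but they were called for a positive change, so this is no separate result. The share of all genes above their own neighbourhood was not computed. The median difference was 0.39, larger than the 0.30 without subtraction, and with the median of the whole chromosome subtracted the members' median was 0.31. The differences ran from -0.72 for Psme1 to 0.87 for Psmc6, which rose in a neighbourhood of -0.35. On chromosome 2, where 46.6% of other tested genes rose, 4 of 5 members rose, while Psma7 lay near its far end. On chromosome 11, where 26.2% of other tested genes rose, 7 of 8 members did. Chromosome 14, where 11.9% rose and 39.7% fell, held Psmb5, Psmc6, Psme1 and Psme2 among its 6 tested members, 2 rising and 2 falling. The part of chromosome position in the members' changes was not tested.

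**Figure D4:**
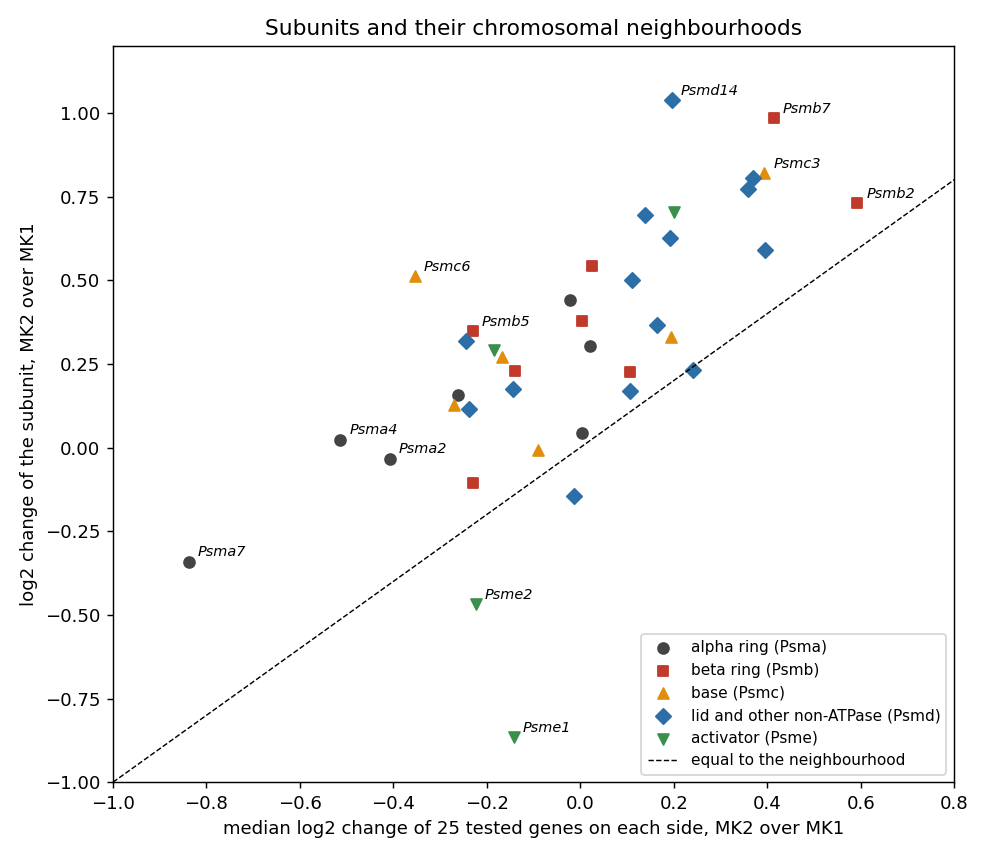
Log2 change (MK2 over MK1) of each of the 39 tested members against the median log2 change of 25 tested genes on each side of it, with a symbol for each part of the complex and a dashed line where both are equal. 35 points lie above the line and 4 below it, with Psme1 farthest below.

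Among genes that work around the proteasome, too, more rose than fell. Of 45 tested genes in 5 lists (immunoproteasome, assembly chaperones, associated factors, ubiquitin and p97 genes, and regulators), 19 rose and 6 fell, 42.2% and 13.3%, beside 25.9% and 28.6% of all genes. Among 5 assembly chaperones Psmg3 rose by 0.42 (adjusted p = 0.0267), a call that ended without MK1 replicate 1, MK1 replicate 2 or MK2 replicate 1 (adjusted p = 0.190, 0.0704 and 0.0645). Pomp, the maturation factor of the core, had 161 and 160 CPM in MK2, against 120 and 141 CPM in MK1, and its log2 change of 0.30 ± 0.12 (SE) did not pass (adjusted p = 0.0640).

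Among 15 factors that bind or serve the proteasome 7 rose and 1 fell, 46.7% and 6.67%, beside 25.9% and 28.6% of all genes tested. Akirin2, which brings proteasomes into the nucleus, had 47.9 and 50.1 CPM in MK2, against 21.2 and 19.8 CPM in MK1, and rose by 1.26 ± 0.11 (SE; adjusted p = 0.000237). The ubiquitin shuttle Rad23b had 410 and 401 CPM in MK2, against 211 and 212 CPM in MK1, a rise of 0.94 (adjusted p = 0.000451). AI314180, now named Ecpas, whose product tethers core and regulatory particle, rose by 0.81 (adjusted p = 0.000911), and these 3 genes lie on chromosome 4, where 47.2% of tested genes other than Psmb2 rose. Usp14, the deubiquitinase docked on Psmd2, rose by 0.65 (adjusted p = 0.00385; 0.0537 without MK1 replicate 1). Psmf1, which encodes the proteasome inhibitor PI31, was the one that fell, with 34.8 and 39.2 CPM in MK2 against 54.1 and 65.0 CPM in MK1, a change of -0.69 ± 0.13 (adjusted p = 0.00509).

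Of 11 ubiquitin, activating-enzyme and p97 genes 7 rose, 63.6%, beside 25.9% of all genes tested. Vcp and Faf1 among them also lie on chromosome 4, with neighbourhood medians of 0.54 and 0.67. Vcp, the segregase p97 that delivers substrates, had 764 and 847 CPM in MK2, against 433 and 409 CPM in MK1, and rose by 0.94 ± 0.11 (SE; adjusted p = 0.000679). Its cofactors Faf1, Ufd1l and Ubxn1 rose by 0.68, 0.61 and 0.60 (adjusted p = 0.00183, 0.00665 and 0.00309), the call of Ufd1l ending without MK1 replicate 1 (adjusted p = 0.0722).

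The regulators of proteasome genes did not move as a group. Nfe2l1 had 208 and 285 CPM in MK2, against 297 and 226 CPM in MK1, so that the lines overlapped, and its log2 change of -0.08 ± 0.19 (SE; adjusted p = 0.734) changed sign with the libraries included. Nfe2l2, which encodes the related NRF2, had a log2 change of 0.03 ± 0.14 (adjusted p = 0.889). Ngly1, the glycanase that activates NRF1 protein, fell by 0.91 to 17.01 and 15.8 CPM in MK2, against 31.4 and 30.4 CPM in MK1 (adjusted p = 0.00125). The NF-Y subunits went both ways. Nfyc had 42.8 and 44.6 CPM in MK2 against 22.1 and 23.9 CPM in MK1 (adjusted p = 0.000802). Nfyb had 37.9 and 36.5 CPM in MK2 against 70.2 and 82.7 CPM in MK1 (adjusted p = 0.000689). Nfyc lies on chromosome 4 with a neighbourhood median of 0.51, and Nfyb on chromosome 10 with one of -0.34. Foxm1, a mitotic transcription factor, rose by 0.63 (adjusted p = 0.00878; 0.0896 without MK1 replicate 1). Maff, a small Maf partner of NRF1 and NRF2, rose by 1.21, and that call ended without MK1 replicate 1, MK1 replicate 2 or MK2 replicate 2 (adjusted p = 0.135, 0.0797 and 0.0625).

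**Figure D5:**
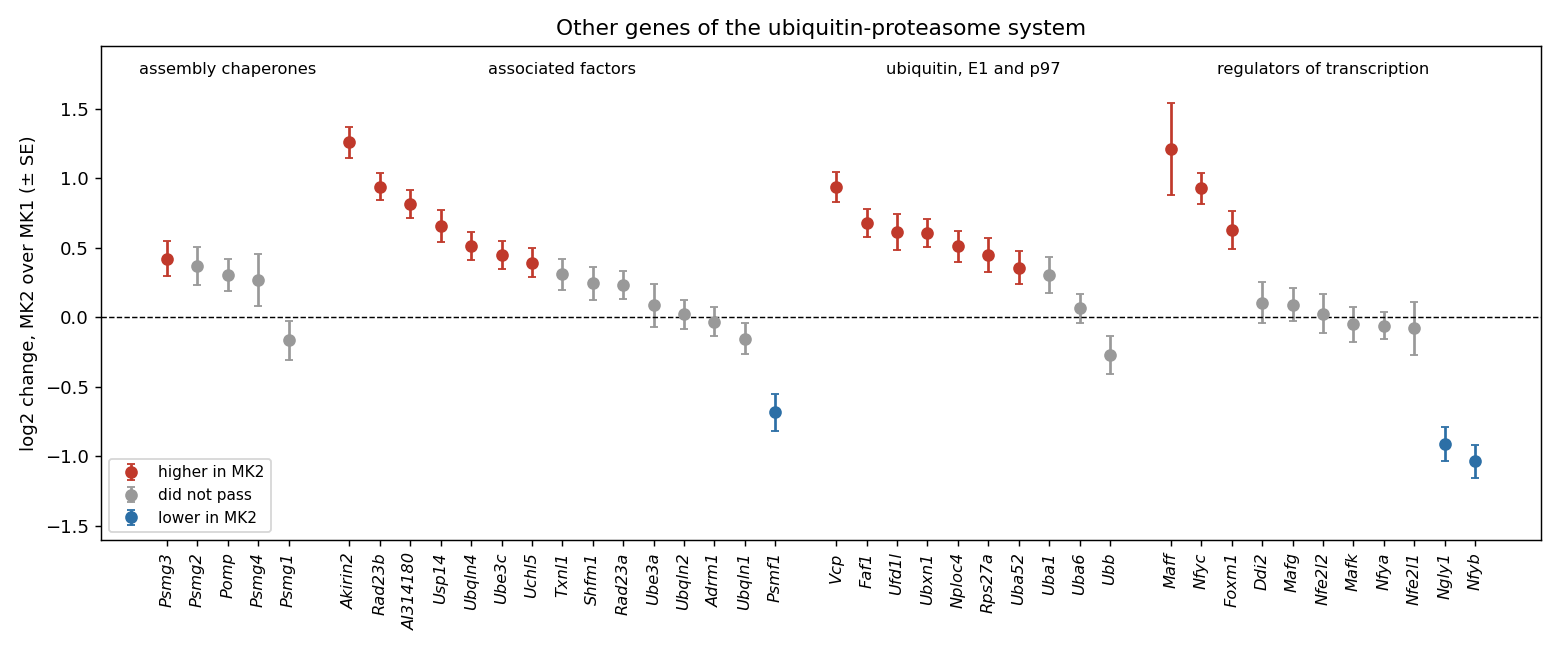
Log2 change (MK2 over MK1) with SE of tested genes around the proteasome in 4 lists, ordered within each list, in red where higher in MK2, blue where lower and grey where the test was not passed. Akirin2 and Maff lie highest, and Psmf1, Ngly1 and Nfyb lie lowest.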

How the data were processed

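Total RNA of 4 cultures was sequenced after TruSeq library preparation, per the labels' protocols. The deposited table holds raw counts of reads by gene that the authors obtained with featureCounts 1.4.6-p4 from TopHat alignments to UCSC mm10 genes, with no option for strand or reads with several alignments, per the file headers. The command in the header calls the alignments of the second line MKU, while the columns are named MK2, as in the labels. The submitters' processing notes name DESeq2 1.10.1, featureCounts 1.5.0, Bowtie2 2.2.6 and TopHat2 2.0.13. Processed copies, overlapping genes (Psmb5 with Mir686, Psma4 with AY074887 over 45 bases, Psme1 with Emc9 over 4 bases) and antisense partners are therefore uncertain. Libraries of MK2 held 25237391 and 28601806 counts and those of MK1 30261111 and 26693849, and floors and intervals cover counting error only. Gene length in bases, given by the authors in the same table, served for TPM.

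Counts were tested in edgeR 4.0.16 (R 4.3.3) with filterByExpr (minimum count 10), TMM scaling and the quasi-likelihood test over all genes, two-sided, and glmTreat at a log2 fold change of 1. SEs were derived from the log2 change and its F statistic. DESeq2 1.42.0, other scalings, no count filter, each library left out, the replicate number as a block and a gene-length trend were alternatives. In simulated data for MK2 against MK1 with 2 against 2 libraries, 34% of 100 genes changed by 1.5-fold and 95% of 100 changed by 2-fold were called, as were 0.074% of 12159 unchanged genes. The simulation gave every gene the same spread and changed far fewer genes than were called here, so these shares do not carry over to the data. Replicates differed by more than counting noise (median chi-square per gene 4.28 in MK2 and 2.88 in MK1). The members and gene lists were chosen with earlier results of these data known. Values by culture were named for the catalytic, tissue-restricted and activator subunits, the extremes of change and abundance in each part of the complex, and up to 5 called genes of each other list, beside 7 genes set by name. Other members were given as counts and changes. Of 46 listed genes around the proteasome, 45 were found, and Paaf1 was not analysed here. Values of some genes in these lists are not reported here.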

Additional observations from a re-analysis of the deposited data

How the results depend on the processing

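The count of called members, 22 in the report, stayed within 1.5 times of that under every alternative except with an MK1 library left out. Over the 4 fits without 1 library it ran from 12 to 23, with 9 to 21 higher and 1 to 3 lower, the count of all genes called, 6810 with all libraries (3235 higher and 3575 lower), from 3716 to 6847 (1527 to 3222 higher and 2189 to 3625 lower), and that of other ubiquitin-proteasome genes, 25 with all, from 14 to 26. These fits had fewer samples. No called member changed sign under any alternative, and 0 members exceeded 2-fold under any that tested it. The members' median log2 change of 0.30 ran from 0.28 to 0.34 without 1 library and was 0.25 with upper-quartile scaling, where the median of all genes was -0.07. Among uncalled genes the sign changed for Psmb11 (0.42 without MK1 replicate 1 and 0.29 without MK2 replicate 2; over the 4 fits without 1 library -0.60 to 0.42), Psmc1 (0.01 without MK1 replicate 2 and 0.018 without MK2 replicate 1; -0.035 to 0.018), Nfe2l1 (0.12 without MK1 replicate 1 and 0.13 without MK2 replicate 1; -0.32 to 0.13) and Nfe2l2 (-0.032 with upper-quartile scaling, -0.01 without MK1 replicate 1 and -0.16 without MK2 replicate 2; -0.16 to 0.20), and the cause was not tested. It also changed for Psma1 (-0.080 without MK1 replicate 1, -0.013 without MK2 replicate 2 and -0.014 with upper-quartile scaling), Psma2 (0.049 without MK1 replicate 2) and Psma4 (-0.051 without MK1 replicate 1, -0.034 with upper-quartile scaling, and -0.0043 and -0.0046 with the length trend removed, without and with the replicate block).

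The labels do not say that replicate numbers pair the cultures, and same-numbered libraries deviated with a correlation of -0.159 across tested genes and of 0.344 across the members. With the replicate block, 16 members rose and 2 fell, the calls of Psma3, Psmb5, Psmc5 and Psme3 ending (18 calls; 17 with the length trend removed as well, where Psmb3 also ended). With the crossed replicate block, added after seeing the data, 21 rose and 3 fell. With upper-quartile scaling 16 rose and 3 fell, with the length trend removed 23 and 3, and in DESeq2 21 and 2. In simulated data 34% of 1.5-fold changes were called, a share that does not carry over to these data. Members that did not pass are not shown to be equal between the lines.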
